A study of Homo sapiens with 6 samples.

Results

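The messenger RNA levels of 10 transcription factors of the epithelial-mesenchymal transition were examined in SKOV3 cells with and without knockdown of JUP. The factors were named by symbol and matched to 10 of the 60664 genes in the table. They comprise 7 inducers of the mesenchymal state (ZEB1, ZEB2, SNAI1, SNAI2, TWIST1, PRRX1 and TCF4) and 3 factors of epithelial identity (GRHL2, OVOL2 and ELF3). The rule names symbols and uses no measured value, but it was written with earlier results of these data known.

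In the epithelial-mesenchymal transition, cells joined by E-cadherin junctions take on a motile, mesenchymal form. ZEB1, ZEB2, SNAI1 (SNAIL) and SNAI2 (SLUG) are zinc finger repressors that bind E-box motifs in the promoters of CDH1 and other epithelial genes, and TWIST1 and TCF4 (E2-2) are basic helix-loop-helix proteins that bind related motifs. PRRX1 is a homeobox factor, GRHL2 and OVOL2 repress ZEB1 and keep epithelial genes active, and ELF3 is an epithelium-specific ETS factor. ZEB1 and ZEB2 are also held down after transcription by the miR-200 family and miR-205, and the ZEB proteins repress the miR-200 genes in turn. Carcinoma cells of the ovary often carry epithelial and mesenchymal features side by side.

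SKOV3 is an established human ovarian carcinoma line. The group called shJUP holds 3 libraries labelled as JUP knockdown, and the group called shNC holds 3 control libraries, whose genotype is labelled WT although the protocol describes them as cells with the control hairpin. Per the labels' protocols, RNA came from independent biological replicates. The labels name no hairpin sequence, no clone or pool, no time after transduction and no treatment, and every library shares the SKOV3 background. Effects of the hairpin other than the loss of JUP cannot be told apart from those of JUP in this design. Levels are given as CPM, a gene's counts relative to the library total after TMM scaling, a correction for RNA composition.

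The DNA motif on which the ZEB and SNAIL proteins act is shown first, since 4 of the inducers are known through it. Its strong form is CAGGTG, read as CACCTG on the other strand, and both were searched in the 250 bases before each start site in the RefSeq promoter table (GRCh38.p14). The motif stood in 17.5% of all 35116 windows. Among 40 epithelial genes listed as targets of these factors, 21 matched the table, and 16 of their 29 windows (55.2%) held it. Among 40 mesenchymal genes, 5 of 38 windows (13.2%) did. The epithelial genes were chosen as targets of these factors, so their share is a description only. A gene with several windows counts more than once, and CDH1 and EPCAM were not matched in the promoter table. Windows with 4 or more motifs made up 0.122% of all, and 1 of the 2 windows of CLDN7, a claudin of tight junctions, and the window of CRB3, a polarity protein, were among them. The other CLDN7 window held 0. ELF3 was the only epithelial factor matched in the table, and 4 inducers were matched, of which ZEB1 had the motif in 2 of its 7 windows and ZEB2, PRRX1 and TCF4 had it in none of their windows. A match describes the letters in the window and is not a measured binding site. The window of CLDN7 with motifs (chr17:7262479-7262728, minus strand) and those of CRB3 (chr19:6464021-6464270, plus strand) and ELF3 (chr1:202010337-202010586, plus strand) follow, read 5′ to 3′ on the gene's strand with the motifs in capitals.
CLDN7: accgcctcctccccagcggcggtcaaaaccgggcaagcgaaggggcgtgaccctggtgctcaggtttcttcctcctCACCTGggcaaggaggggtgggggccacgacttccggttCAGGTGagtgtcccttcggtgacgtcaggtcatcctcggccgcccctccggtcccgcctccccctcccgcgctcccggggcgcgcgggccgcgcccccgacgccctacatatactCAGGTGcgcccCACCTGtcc
CRB3: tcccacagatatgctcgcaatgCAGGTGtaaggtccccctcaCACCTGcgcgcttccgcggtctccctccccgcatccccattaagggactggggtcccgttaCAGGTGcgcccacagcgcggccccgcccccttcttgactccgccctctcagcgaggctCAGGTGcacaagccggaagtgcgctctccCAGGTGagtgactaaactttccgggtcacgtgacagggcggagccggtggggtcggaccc
ELF3: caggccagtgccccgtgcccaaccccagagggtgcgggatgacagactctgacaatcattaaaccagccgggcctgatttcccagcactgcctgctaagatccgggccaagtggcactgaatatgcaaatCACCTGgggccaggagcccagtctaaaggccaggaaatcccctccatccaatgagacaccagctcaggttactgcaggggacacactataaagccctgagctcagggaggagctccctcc
The 4 motifs of CLDN7 lay 3 to 168 bases before the start site and the 5 of CRB3 lay 54 to 222 bases before it, whereas the single motif of ELF3 ended 114 bases before it.

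The microRNAs that act on ZEB1 and ZEB2 fall into 3 seed groups. Mature sequences are from RefSeq (GRCh38.p14) with the seed, bases 2 to 8, in capitals.
hsa-miR-200b-3p: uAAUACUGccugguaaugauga
hsa-miR-200c-3p: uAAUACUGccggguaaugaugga
hsa-miR-429: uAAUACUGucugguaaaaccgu
hsa-miR-200a-3p: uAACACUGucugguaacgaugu
hsa-miR-141-3p: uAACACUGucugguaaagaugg
hsa-miR-205-5p: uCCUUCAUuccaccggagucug
The first 3 share the seed AAUACUG, miR-200a and miR-141 share AACACUG, and miR-205 has CCUUCAU. The site that pairs with the first seed, CAGTATT, occurred in 10.8% of 10133 genes within the first 1000 bases of the 3′ UTR (GENCODE release 29), and 0.868% of genes had at least 2. ZEB1 held 3 such sites in that window and 6 in its whole 3′ UTR of 2549 bases, and ZEB2 held 4 and 5 in 5370 bases. The first site of each is printed with its neighbouring bases, the seed match in capitals.
ZEB1 site: ttttatcttatCAGTATTatca
ZEB2 site: ctaccatacatCAGTATTttta
The site for miR-141 and miR-200a, CAGTGTT, was found in 13% of genes, once in ZEB1 and 3 times in ZEB2 within the window. The miR-205 site, ATGAAGG, was found in 7.84% of genes, once in ZEB1 and not in that window of ZEB2. The whole 3′ UTR of ZEB2 used here held no match to it either. These libraries were made from polyadenylated RNA and measure no mature microRNA. The host transcript of miR-200c and miR-141, MIR200CHG, had 0 counts in all 6 libraries, and MIR205HG had 0 in 5 libraries and 0.85 CPM in shNC 2.

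Library totals ranged from 17456121 to 19279514 estimated counts, so 3 counts, the limit that a count of 0 allows, corresponded to 0.156 to 0.172 CPM of the library total. This limit covers counting error only. JUP (ENSG00000173801) encodes plakoglobin of desmosomes and adherens junctions. Its level was 39.9, 93.6 and 24.6 CPM in libraries 1, 2 and 3 of shJUP, compared with 104, 133 and 101 CPM in those of shNC. The groups did not overlap, but shJUP 2 lay close to the controls. Its log2 fold change (shJUP over shNC) was -1.10 (SE 0.44, adjusted p = 0.47 in edgeR's quasi-likelihood test). With the library number as a block it was -1.30 (adjusted p = 0.12 in edgeR and 0.048 in DESeq2), and without shJUP 2 it was -1.80. In these bulk cultures, fewer cells with a transcript and less of it per cell cannot be told apart.

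None of the 9 factors with enough counts for a test passed an adjusted p of 0.05 in edgeR, where the share called among all 15867 genes was 0%. At an unadjusted p under 0.05, 1 factor passed, PRRX1, against 10% of all genes. DESeq2 without a block and limma-voom called 0 factors, and DESeq2 called 1.19% of 15066 genes. Shares in DESeq2 are of the genes to which it gave an adjusted p. A block for the number gave 0 factors and 0.0063% of genes in edgeR, and 1 factor, ELF3, and 5.25% of 13251 genes in DESeq2. Without both number-2 libraries, edgeR called 0 factors and 0.308% of 15905 genes. In 5 of the 9 factors (SNAI1, SNAI2, PRRX1, OVOL2 and ELF3) the knockdown library lay on the same side of its control in 3 of 3 numbers in CPM. That held for 43.8% of all genes. For SNAI1 and OVOL2 it depended on the scaling. SNAI1 had 64 against 65 counts in number 2, and OVOL2 had 25 against 25 in number 3. Per exon length, the knockdown library was above its control for SNAI1 in number 2 and for OVOL2 in number 1. Of the 9 factors, 3 had a log2 fold change above 0 and 6 below, with a median of -0.13, beside 7708 above and 8159 below and a median of -0.01 over all genes tested. The plot of levels by library shows what lies behind these counts. There are flat factors, factors whose libraries of number 2 stand apart, and PRRX1 and SNAI1, whose groups are separate in CPM. For SNAI1 the margin is narrow.

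**Figure D1:**
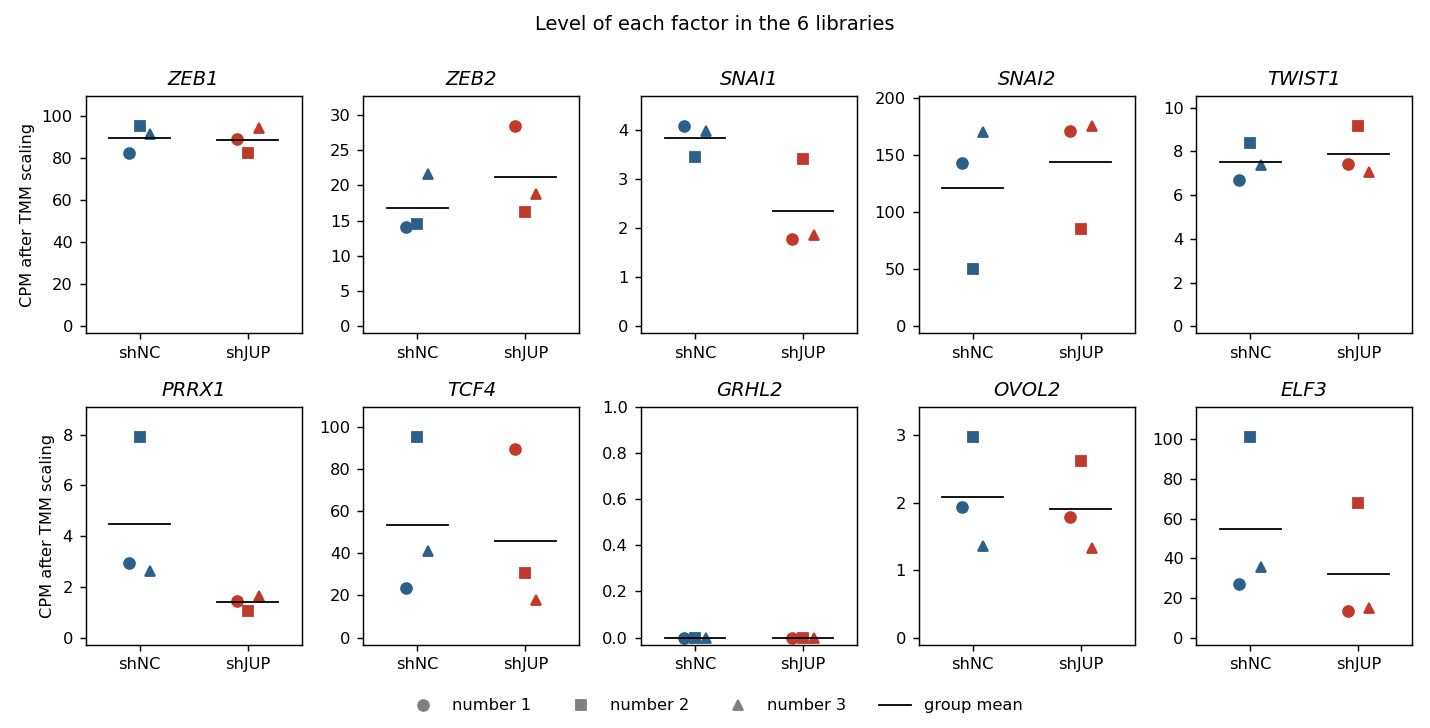
Level of each of the 10 factors in CPM after TMM scaling (vertical axes, linear, each panel with its own scale) in the control group (shNC) and the knockdown group (shJUP). Each point is 1 library, its shape gives the library number and the bar is the mean of 3 libraries. ZEB1 lies between 82.4 and 95.5 CPM in all libraries, ELF3 is highest in the number-2 library of both groups, and GRHL2 is at 0 throughout.

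ZEB1 was abundant and even. Its level was 89.2, 82.4 and 94.4 CPM in libraries 1, 2 and 3 of shJUP, compared with 82.5, 95.5 and 91.5 CPM in those of shNC. The groups overlapped, with the highest and the lowest value both in number-2 libraries. The log2 fold change was -0.02 (SE 0.11, 95% interval -0.27 to 0.23, edgeR adjusted p = 0.96). The highest library exceeded the lowest 1.16-fold, and only 4.44% of the 11370 tested genes with a mean of at least 5 CPM had a smaller such ratio, the median being 1.48. The antisense transcript ZEB1-AS1, which shares the ZEB1 promoter region, lay between 6.25 and 8.06 CPM. No source used here gives the strand setting of the counting, and reads of such partners may be mixed.

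ZEB2, the paralogue of ZEB1, was lower and less even. Its values were 28.5, 16.3 and 18.7 CPM in libraries 1, 2 and 3 of shJUP, compared with 14, 14.5 and 21.7 CPM in those of shNC. The highest value belonged to shJUP 1, and shNC 3 lay above the other two knockdown libraries. A log2 fold change of 0.34 (SE 0.26, 95% interval -0.28 to 0.95, edgeR adjusted p = 0.68) resulted, which was 0.07 without shJUP 1. Within the numbers, shJUP over shNC was 2.03 for number 1, 1.12 for number 2 and 0.866 for number 3. ZEB2-AS1 stayed at or below 0.112 CPM, and the antisense genes TCF4-AS1 and TCF4-AS2 had 0 counts in all libraries.

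SNAI1, the E-cadherin repressor SNAIL, was a low transcript whose groups were separate in CPM by a narrow margin. It had 32, 64 and 35 counts in libraries 1, 2 and 3 of shJUP and 74, 65 and 73 counts in those of shNC. On the CPM scale these were 1.79, 3.41 and 1.86 against 4.09, 3.45 and 3.97. In CPM every knockdown library lay below every control. The ratio of shJUP 2 to shNC 2 was 0.989, while those for numbers 1 and 3 were 0.436 and 0.468. Per exon length, without TMM scaling, shJUP 2 (7.577) lay above shNC 2 (7.505), and the groups overlapped. SNAI1 had a log2 fold change of -0.70 (SE 0.32, 95% interval -1.45 to 0.05, edgeR adjusted p = 0.53). Without both number-2 libraries it was -1.13 (edgeR adjusted p = 0.13). For numbers 1, 2 and 3, the JUP ratios were 0.384, 0.705 and 0.243. SNAI2 and ELF3 also had their highest ratio in number 2, whereas ZEB1, PRRX1, TCF4 and OVOL2 had their lowest there. The share of all genes with either order was not counted, and whether any of these ratios is connected with JUP was not tested.

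SNAI2, the SLUG repressor, had the highest mean level per exon length of all the factors in both groups. Its values were 171, 84.8 and 175 CPM in libraries 1, 2 and 3 of shJUP, compared with 143, 50.5 and 170 CPM in those of shNC. In each group the number-2 library was lowest, at 0.490 and 0.322 of the mean of the other two in shJUP and shNC. Among all tested genes, 26% were lowest in number 2 of both groups. SNAI2 was higher in shJUP in 3 of 3 numbers, which 21.3% of tested genes were, with ratios of 1.20, 1.68 and 1.03. Its log2 fold change was 0.25 (SE 0.45, 95% interval -0.82 to 1.31, edgeR adjusted p = 0.88), and 0.35 (SE 0.15, edgeR adjusted p = 0.28) with the number as a block. Without shNC 2 it was -0.13.

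TWIST1, a basic helix-loop-helix inducer, varied little. Its level was 7.42, 9.18 and 7.06 CPM in libraries 1, 2 and 3 of shJUP, compared with 6.69, 8.39 and 7.40 CPM in those of shNC. The groups overlapped, and the number-2 library was highest in both. TWIST1, OVOL2 and ELF3 were the 3 of 9 factors with that order (33.3%), beside 25.8% of all tested genes. The log2 fold change was 0.07 (SE 0.19, 95% interval -0.38 to 0.53, edgeR adjusted p = 0.92). Its close relative TWIST2 stood at 11.9 to 13.1 CPM in shJUP and 13.0 to 16.8 CPM in shNC.

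PRRX1, a homeobox inducer, had separate groups at low counts. It had 26, 20 and 31 counts in libraries 1, 2 and 3 of shJUP and 53, 149 and 48 counts in those of shNC, or 1.45, 1.07 and 1.65 against 2.93, 7.92 and 2.61 CPM. All knockdown libraries lay below all controls, among which shNC 2 was far above the others. Its log2 fold change was -1.69 (SE 0.49, 95% interval -2.83 to -0.55, unadjusted p = 0.00971 and adjusted p = 0.41 in edgeR). DESeq2 gave an adjusted p of 0.071, and 0.10 with the block. Without shNC 2 the difference was -0.99 (edgeR adjusted p = 0.38). It was -0.83 with both number-2 libraries left out (edgeR adjusted p = 0.23). In CPM, PRRX1 and SNAI1 were the 2 factors whose groups did not overlap with shJUP lower, which held for 8.65% of all tested genes. The groups of SNAI1 did overlap per exon length.

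TCF4, the E protein E2-2, varied widely within each group. Its values were 89.4, 30.5 and 18.1 CPM in libraries 1, 2 and 3 of shJUP, compared with 23.7, 95.2 and 41.0 CPM in those of shNC. The high libraries were shJUP 1 and shNC 2, and the groups overlapped. Its log2 fold change was -0.22 (SE 0.67, 95% interval -1.79 to 1.36, edgeR adjusted p = 0.93), and 0.50 without shNC 2. The highest library exceeded the lowest 5.27-fold, and 98.2% of genes with a mean of at least 5 CPM had a smaller ratio.

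GRHL2, a grainyhead factor that maintains E-cadherin expression, had 0 counts in all 6 libraries. At this depth a count of 0 allows up to 3 counts, or 0.159 to 0.167 CPM after scaling, in each library. It was not tested, and no difference was detectable. OVOL2, a zinc finger repressor of ZEB1, had 32, 49 and 25 counts in libraries 1, 2 and 3 of shJUP and 35, 56 and 25 in those of shNC. On the CPM scale OVOL2 stood at 1.79, 2.61 and 1.33 against 1.93, 2.97 and 1.36. The number-2 library was highest in both groups and the groups overlapped. OVOL2 had a log2 fold change of -0.13 (SE 0.40, 95% interval -1.07 to 0.80, edgeR adjusted p = 0.93), and 0.21 without shNC 2.

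ELF3 was the epithelial factor with the highest level and, of the 9 factors detected, the one with the largest ratio between libraries. Its values were 13.2, 67.8 and 14.8 CPM in libraries 1, 2 and 3 of shJUP, compared with 27.1, 101 and 35.9 CPM in those of shNC. The number-2 library stood at 4.86 times the mean of the other two in shJUP and 3.22 times in shNC. Among all tested genes, 25.8% were highest in number 2 of both groups. The highest library exceeded the lowest 7.69-fold, a ratio that 99.0% of genes with a mean of at least 5 CPM did not reach. Within each number the knockdown library was lower, at 0.486, 0.670 and 0.412 of its control, and 22.5% of tested genes were below the control in 3 of 3 numbers.

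The test of ELF3 depended on the treatment of these numbers. Without a block the log2 fold change was -0.78 (SE 0.74, 95% interval -2.51 to 0.95), with an adjusted p of 0.73 in edgeR and 0.86 in DESeq2. With the number as a block it was -0.95 (SE 0.15, edgeR adjusted p = 0.087), and DESeq2 with the block called it lower at -0.95 (SE 0.19, adjusted p = 7.3e-05). That fit called 2.91% of genes lower. Without both number-2 libraries edgeR gave -1.16 (adjusted p = 0.07), and without shNC 2 alone it gave 0.02. The labels do not say what the numbers stand for.

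**Figure D2:**
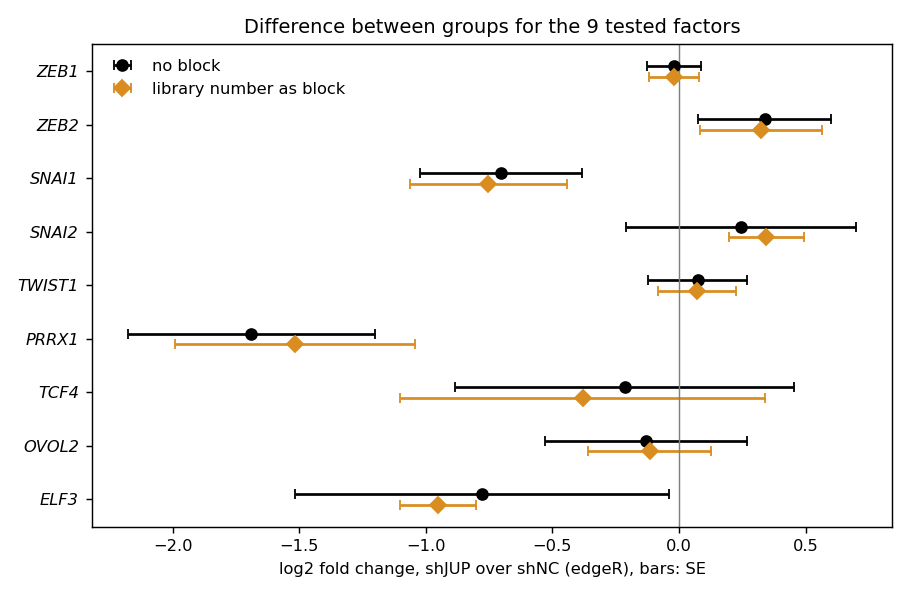
Log2 fold change of the 9 tested factors, shJUP over shNC, from edgeR (horizontal axis), without a block (black circles) and with the library number as a block (orange diamonds), where bars are 1 SE. The SE of ELF3 is 0.74 without the block and 0.15 with it, and that of SNAI2 is 0.45 and 0.15, while the SE of TCF4 is 0.67 and 0.72.

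The order of the factors by abundance was read per exon length, as counts per base of exon scaled to the same total in each library, a TPM-like level. In shNC the means ± SD (n = 3) of this level were 136 ± 73 for SNAI2, 39.3 ± 2.1 for ZEB1 and 28.4 ± 20 for ELF3. They were followed by TWIST1 at 13.9 ± 1.2, SNAI1 at 8.63 ± 0.99 and TCF4 at 7.16 ± 4.8. OVOL2 at 3.61 ± 1.3, ZEB2 at 2.53 ± 0.68 and PRRX1 at 2.03 ± 1.3 were lowest, above GRHL2 at 0. Of these neighbours, SNAI2 lay above ZEB1 and TWIST1 above SNAI1 in every control library without overlap, and PRRX1 lay above GRHL2. The other neighbours overlapped between libraries and were not ordered beyond their spread. In shJUP the means of this level were 169 ± 65 for SNAI2 and 40.5 ± 4.2 for ZEB1, which again did not overlap, and SNAI1 at 5.44 ± 1.9 lay below TCF4 at 6.69 ± 5.9, well within their spread. The union of exons spans 27828 bases for TCF4 and 25058 for ZEB2, against 8343 and 9583 in their longest transcripts. With the longest transcript as the length, TCF4 stood at 17.9 and ZEB2 at 4.94 in shNC, and TCF4 then came above TWIST1 at 12.7. With that length ELF3 (55.8) also lay above SNAI2 (49.1) in shNC 2.

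**Figure D3:**
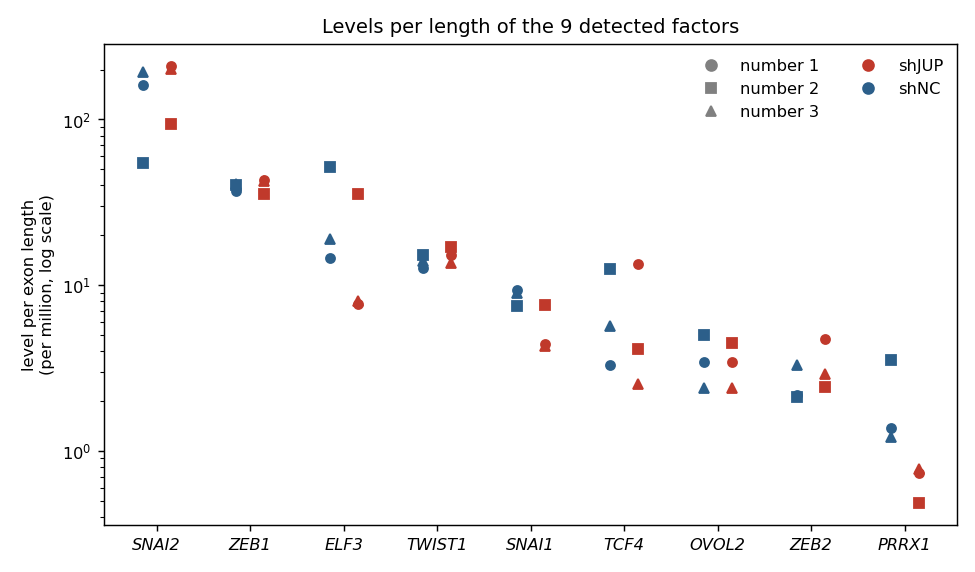
Level per exon length of the 9 detected factors (vertical axis, TPM-like, log scale), ordered by mean. Each point is 1 library, blue for shNC and red for shJUP, with the shape giving the library number. With this length SNAI2 is highest in every library, between 54.5 and 211, and PRRX1 lies between 0.484 and 3.52.

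The genes that varied most like each factor were found by Pearson's r of log2(CPM + 0.5) over the 6 libraries, among 11370 genes with a mean of at least 5 CPM. The libraries share numbers and scaling, and the values are the highest out of 11370 for each factor, so they are a description only. For ZEB1 they were ACD (0.984) and JMJD1C (0.975), and for ZEB2 PPP3R1 (0.984) and KCNMA1 (0.975). For SNAI2 they were MTBP (0.995) and KIF4A (0.994), and for TWIST1 STS (0.995) and AGTPBP1 (0.991). For TCF4 they were TAB3 (0.990) and LINC00922 (0.984), and for ELF3 DHX40 (0.997) and IFNGR1 (0.996). Those of ELF3 had its number-2 pattern, IFNGR1 standing at 50.7, 91.3 and 53.0 CPM in libraries 1, 2 and 3 of shJUP, compared with 64.5, 104 and 67.7 CPM in those of shNC.

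Some genes of the same classes, chosen after their values were seen, had a similar order of libraries. EHF, an ETS factor of epithelia related to ELF3, had 13.7, 76.7 and 13.4 CPM in libraries 1, 2 and 3 of shJUP, compared with 37.6, 125 and 31.9 CPM in those of shNC. SOX4, listed among the inducers, had 40.6, 140 and 50.8 against 104, 318 and 124 CPM. In both, as in ELF3, number 2 was highest in each group and shJUP was lower in 3 of 3 numbers. DESeq2 with the block called both lower, EHF at -1.12 (adjusted p = 1.4e-06) and SOX4 at -1.27 (adjusted p = 5.1e-22). Neither passed without the block in edgeR (adjusted p = 0.72 and 0.54). Both were picked with this order seen, so these p-values are a description only. Number 2 was highest in both groups for 10 of 23 other inducers tested and 6 of 13 other epithelial factors tested, beside 25.8% of all tested genes. It was lowest in both groups for 3 and 2 of them, beside 26%.

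FN1, SPARC and WNT5A, picked after their values were seen because they shared the high libraries of TCF4, are given as examples. FN1, fibronectin, had 3952, 2111 and 650 CPM in libraries 1, 2 and 3 of shJUP, compared with 861, 5835 and 1645 CPM in those of shNC. SPARC, a matrix glycoprotein, stood at 322, 61.4 and 35.8 against 25.6, 295 and 47.3 CPM. WNT5A, a Wnt ligand, stood at 138, 26.3 and 16.8 against 12.2, 105 and 33.5 CPM. All were highest in shJUP 1 and shNC 2, as TCF4 was, but other genes of the same list had other orders: FBN1 was lowest among controls in shNC 2 (513 CPM), and TGFBI was highest among knockdown libraries in shJUP 2 (385 CPM). The 10 fibroblast markers examined had a summed level of 12.5 to 262 CPM in shJUP and 42.6 to 477 CPM in shNC, carried mostly by COL1A1 at 253 CPM in shJUP 1 and 401 CPM in shNC 2. Among them 6 reached 1 CPM in some library, DPT was at 0 in all, and the surface markers PDGFRB, THY1 and FAP did not exceed 0.579 CPM. Their part in the levels of TCF4 and of PRRX1, which was highest in shNC 2, was not tested.

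**Figure D4:**
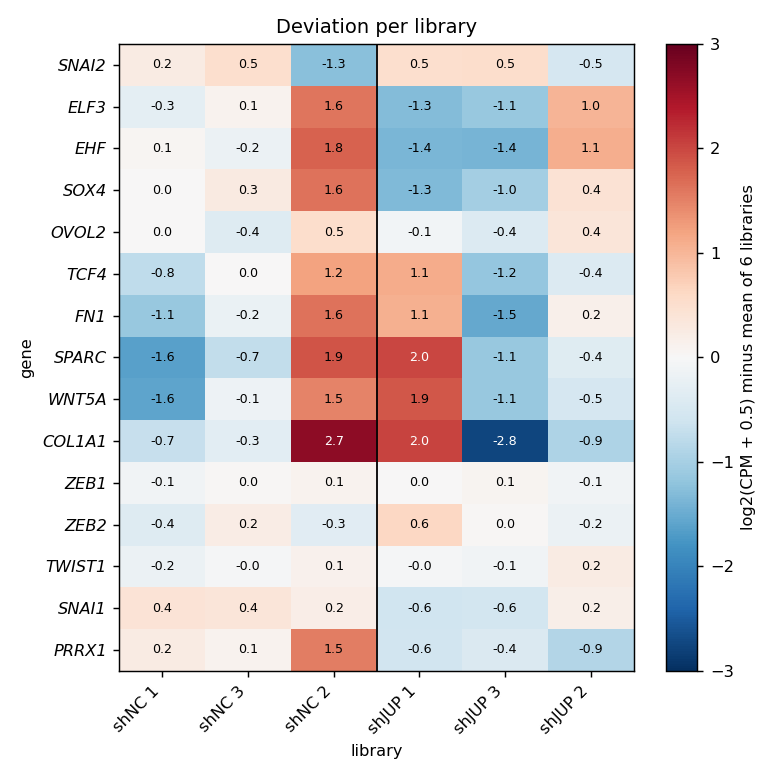
Log2(CPM + 0.5) of 15 genes minus the mean of the 6 libraries (colour scale and printed values), with genes in rows and libraries in columns, shNC left and shJUP right of the black line. ELF3, EHF and SOX4 are above their mean in number 2 of both groups, SNAI2 is below its mean there, and TCF4, FN1, SPARC, WNT5A and COL1A1 are highest in shNC 2 and shJUP 1.

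The genes that the factors act on were taken from lists. Of 40 epithelial genes, 28 were tested, 15 above 0 and 13 below, with a median log2 fold change of 0.15. That median was -0.23 without shJUP 2 and 0.03 and 0.00 without shNC 1 and shNC 3. edgeR called 0 of them (4 had an unadjusted p under 0.05, 14.3% beside 10% of all genes). DESeq2 called 0, beside 1.19% of genes. DESeq2 with the block called 1, the keratin KRT19, lower (-0.50, adjusted p = 0.015), beside 5.25% of genes. CDH1, which encodes E-cadherin, was below the filter, at 0.167, 1.55 and 0.159 CPM in libraries 1, 2 and 3 of shJUP and 0.111, 2.12 and 0 CPM in those of shNC. EPCAM, an epithelial adhesion molecule, had 1.51, 4.21 and 1.54 against 1.71, 4.62 and 1.25 CPM, again highest in number 2. The splicing regulator ESRP1 did not exceed 0.279 CPM and its paralogue ESRP2 lay between 0.427 and 1.17 CPM. Of the 28 tested, 19 (67.9%) were highest in number 2 of both groups, beside 25.8% of all tested genes. CLDN7 and CRB3, whose windows are printed above, were among the 19 and stood at 0.390 to 2.77 and 0.221 to 1.87 CPM over the 6 libraries.

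Within the epithelial list, the 4 genes with the smallest p-values did not pass the edgeR test. CLDN4, a claudin, had a log2 fold change of 1.71 (SE 0.58, edgeR adjusted p = 0.44) at no more than 3.31 CPM. CDS1, an enzyme of phospholipid synthesis, was at 0.36 (SE 0.14, edgeR adjusted p = 0.46) and the keratin KRT8 at 0.37 (SE 0.15, edgeR adjusted p = 0.47). KRT19 was at -0.50 (SE 0.21, edgeR adjusted p = 0.49). KRT8 was abundant at 494 to 839 CPM, but its log2 fold change was 0.21 without shJUP 3, and that of KRT19 was -0.33 without shNC 2.

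Of 40 mesenchymal genes, 35 were tested, 11 above 0 and 24 below, with a median log2 fold change of -0.32, and -0.18 without shNC 2 and -0.19 without shJUP 3. The list shares 8 genes with the fibroblast markers (ACTA2, COL1A1, COL3A1, DCN, DPT, LUM, PDGFRB and THY1). All 6 fibroblast markers tested were below 0, with a median of -1.01. Of the 6, 0 had separate groups, beside 17% of all tested genes, and 0 had an unadjusted p under 0.05 in edgeR, beside 10%. Number 2 was highest in both groups for 4 of them (66.7%), beside 25.8% of all tested genes. The summed level of the 10 markers in shJUP 1 (262 CPM) lay above shNC 1 (42.6) and shNC 3 (59.5) and below shNC 2 (477). The part of these markers in the median of the mesenchymal list was not tested. edgeR called 0 (7 had an unadjusted p under 0.05, 20% of the list beside 10% of all genes). DESeq2 called 1 higher and 4 lower, and with the block 1 higher and 5 lower, beside 1.19% and 5.25% of genes. MMP2, a gelatinase, had 94.7, 133 and 91.2 CPM in libraries 1, 2 and 3 of shJUP, compared with 245, 285 and 271 CPM in those of shNC. The difference of MMP2 was -1.33 on the log2 scale (SE 0.17, edgeR adjusted p = 0.28). TGFBI, a matrix protein induced by TGF-beta, was at -0.97 (SE 0.16) and FBN1, fibrillin, at -0.78 (SE 0.16), each with an edgeR adjusted p of 0.33. AXL, a receptor tyrosine kinase, was at 1.36 (SE 0.28, edgeR adjusted p = 0.33). These genes and the collagen gene COL5A1 (adjusted p = 0.00076 in DESeq2) were the ones DESeq2 called. VIM, vimentin, was even at 2900 to 3764 CPM (log2 fold change -0.08, SE 0.13, edgeR adjusted p = 0.86). CDH2, N-cadherin, lay between 136 and 201 CPM (-0.13, SE 0.15, edgeR adjusted p = 0.80).

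Among 30 other inducers, 23 were tested, 6 above 0 and 17 below, with a median of -0.18, and of -0.03 without shNC 2. edgeR called 0 (2 had an unadjusted p under 0.05, 8.70% beside 10% of all genes). DESeq2 called 0, beside 1.19% of genes, and with the block 1 higher and 2 lower, beside 5.25% of genes. FOSL1, an AP-1 subunit, had 137, 85.5 and 207 CPM in libraries 1, 2 and 3 of shJUP, compared with 65.6, 55.5 and 90.3 CPM in those of shNC. Its log2 fold change was 1.02 (SE 0.32, edgeR adjusted p = 0.42), and DESeq2 with the block called it higher (0.97, adjusted p = 1.1e-07). In edgeR without shJUP 3 it was at 0.66. SOX4 and the chromatin organiser SATB1 were the lower calls. RUNX2, NFATC1 and FOXC1, named for their small p-values, were at -0.42, -0.39 and -0.53, with edgeR adjusted p-values of 0.47, 0.52 and 0.54. In CPM each had knockdown libraries below all controls. They were the 3 of the 23 tested genes (13.0%) with that order, beside 8.65% of all tested genes. The margin was narrow for NFATC1, with shJUP 2 at 17.66 and shNC 1 at 17.69 CPM. It was narrow for FOXC1 too, with shJUP 2 at 21.44 and shNC 3 at 21.49 CPM. Without shNC 2, NFATC1 was at -0.22 and FOXC1 at -0.19.

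Among 20 other epithelial factors, 13 were tested, 7 above 0 and 6 below, with a median of 0.12. It was -0.21 without shJUP 2, -0.14 without both number-2 libraries, and -0.03 to -0.01 without any 1 control library. edgeR called 0 (2 had an unadjusted p under 0.05, 15.4% beside 10% of all genes). DESeq2 called 0, beside 1.19% of genes, and with the block 2 lower, EHF and MYRF, beside 5.25% of genes. GRHL1, the paralogue of GRHL2, had 3.12, 2.61 and 2.81 CPM in libraries 1, 2 and 3 of shJUP, compared with 1.38, 1.75 and 0.870 CPM in those of shNC. Each knockdown library of GRHL1 lay above each control, with a log2 fold change of 1.09 (SE 0.32, edgeR adjusted p = 0.41). Groups separate in either direction were found for 23.1% of the tested genes of this list, beside 17% of all tested genes. Per exon length it was still low, at 1.42 ± 0.21 in shJUP and 0.633 ± 0.20 in shNC. OVOL1, GRHL3 and ELF5 did not exceed 0.112 CPM in any library. MYRF (-0.66, SE 0.24), TFAP2C (1.93, SE 0.83) and KLF5 (-0.29, SE 0.13) had edgeR adjusted p-values of 0.45, 0.50 and 0.52. TFAP2C was at 1.00 without shJUP 1 and 2.92 without both number-2 libraries, and KLF5 at -0.17 without shNC 2. PAX8, the lineage factor of Müllerian epithelium, stood at 253 to 393 CPM (0.12, SE 0.18, edgeR adjusted p = 0.84).

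None of the partners of the factors passed the edgeR test, and the intervals of ID2 and ID4 were wide. All 25 chromatin cofactors tested lay within -0.32 and 0.33 on the log2 scale, with 13 above 0, 12 below and a median of 0.03. Most are listed as corepressors of the SNAIL and ZEB proteins, but the list also holds the acetyltransferases KAT2B and EP300. edgeR called 0 (1 had an unadjusted p under 0.05, 4% beside 10% of all genes). DESeq2 called 0 with and without the block, beside 5.25% and 1.19% of genes. The smallest p-values belonged to SUZ12 (0.27), KAT2B (-0.32), PRMT5 (0.30) and MTA1 (-0.25), with edgeR adjusted p-values of 0.48 to 0.61. Without shNC 2, PRMT5 was at 0.17 and MTA1 at -0.10, and without shJUP 3, KAT2B was at -0.18. Of 8 helix-loop-helix partners and inhibitors, with which TWIST1 and TCF4 pair, 7 were tested, 2 above 0 and 5 below, with a median of -0.15, which turned to 0.31 without shNC 2, 0.08 without shJUP 1 and 0.27 without both number-2 libraries. edgeR and DESeq2 called 0, and 0 had an unadjusted p under 0.05, beside 10% of all genes. TCF12 was at -0.17 (SE 0.09) and TCF3 at 0.16 (SE 0.14). ID2 was at -0.34 (SE 0.52, 95% interval -1.55 to 0.87) and ID4 at -0.20 (SE 0.45, 95% interval -1.25 to 0.84). TCF3 was at 0.03 without shNC 1, and ID2 and ID4 at 0.56 and 0.49 without shNC 2. The ID proteins, which block E proteins such as TCF4, included ID1 at 144 to 377 CPM.

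All 36 genes for the phosphorylation, ubiquitination and removal of the SNAIL, TWIST and ZEB proteins were tested, with 18 above 0, 18 below and a median of 0.00. edgeR and DESeq2 called 0 (4 had an unadjusted p under 0.05 in edgeR, 11.1% beside 10% of all genes). Among all genes, DESeq2 called 1.19%, and 5.25% with the block. DESeq2 with the block called PSMD14, a deubiquitinase of the proteasome, higher (0.44, adjusted p = 0.0051) and the phosphatase CTDSP2 lower (-0.46, adjusted p = 0.020). COPS2 (0.32), CTDSP1 (-0.35), PSMD14 (0.43) and SIAH2 (-0.24) had edgeR adjusted p-values of 0.45 to 0.49. PSMD14 was at 0.28 without shNC 2. The amounts of the factors' proteins were not measured, and RNA levels alone do not give them.

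TGF-beta signalling, which induces these factors in many epithelia, had 27 of 30 genes tested, with 8 above 0, 19 below and a median of -0.15. edgeR called 0 (4 had an unadjusted p under 0.05, 14.8% beside 10% of all genes). DESeq2 called 1 higher and 0 lower, beside 1.19% of genes. That gene was BAMBI, a decoy receptor of the family, at 9.76, 10.3 and 12.5 CPM in libraries 1, 2 and 3 of shJUP and 5.80, 6.53 and 6.80 CPM in those of shNC. BAMBI had a log2 fold change of 0.77 (SE 0.18, edgeR adjusted p = 0.38). Its DESeq2 adjusted p was 0.0499, barely under the threshold of 0.05, and it did not pass DESeq2 with the block (adjusted p = 0.060). The activin subunit INHBA (0.84, SE 0.32), the coreceptor TGFBR3 (0.56, SE 0.22) and SMAD1 (-0.36, SE 0.14) had edgeR adjusted p-values of 0.46 to 0.47. INHBA was at 0.37 without shJUP 1, and TGFBR3 at 0.31 without both number-2 libraries.

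**Figure D5:**
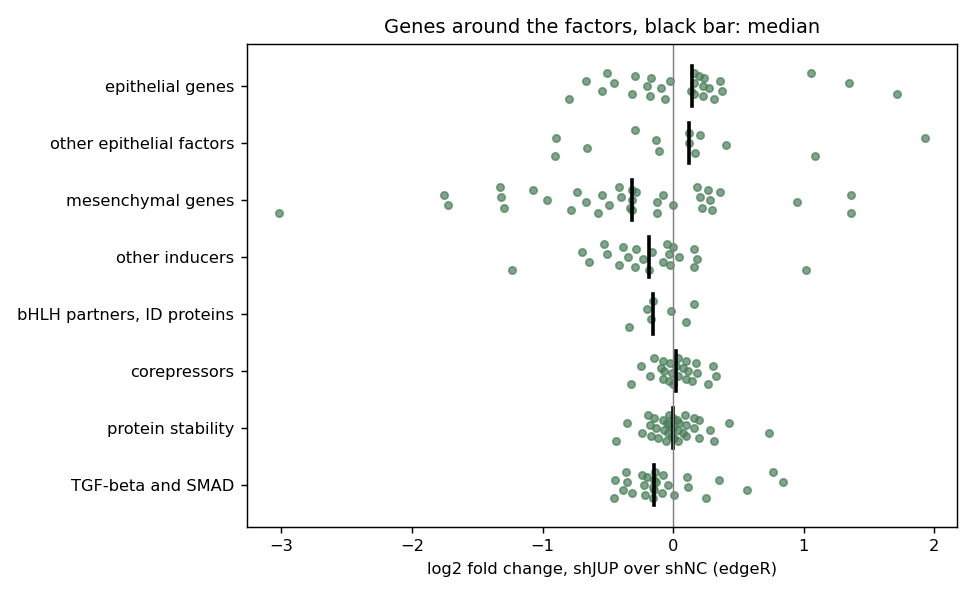
Log2 fold change, shJUP over shNC, of each tested gene in the 8 lists around the factors (horizontal axis, edgeR), where each point is 1 gene and the black bar is the median of the list. With all 6 libraries the medians lie between -0.32 for mesenchymal genes and 0.15 for epithelial genes, the latter turning to -0.23 without shJUP 2. Genes in the corepressor row, KAT2B and EP300 included, stay within -0.32 and 0.33.

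The labelled cell type was checked against its markers. Of 8 markers of the line, PAX8, ERBB2, KRT8, KRT18, KRT7 and WT1 reached 1 CPM, whereas MUC16 and MSLN did not exceed 0.638 and 0.907 CPM. Of 11 leukocyte markers, 1 reached 1 CPM, the lysosomal gene CD68, and CD3E, MS4A1 and HBB were at 0 in all libraries. Of 8 endothelial and 7 mesothelial markers, 5 each reached 1 CPM in some library, led by KDR at 5.06 to 10.8 CPM and by LRRN4 and PDPN at up to 36.7 and 22.4 CPM.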

How the data were processed

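RNA was measured in 6 libraries of SKOV3 cells, 3 shJUP and 3 shNC, from oligo(dT)-selected RNA sequenced on a DNBSEQ instrument, per the labels' protocols. The deposited table holds expected counts per Ensembl gene, left unscaled by the authors. The submitters' processing notes list STAR 2.7.9a, RSEM 1.3.3, edgeR 3.32.1 and DESeq2 1.26.0 without their roles. Genome build, annotation and strandedness: not given in the sources used here. Of 60695 rows, 31 without a gene ID were left out, and the other 60664 gene IDs were matched to symbols for 60463.

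Expected counts were rounded to whole numbers. The comparison used edgeR 4.0.16 in R 4.3.3 (filterByExpr, TMM, two-sided quasi-likelihood test, Benjamini-Hochberg adjustment over all 15867 genes tested, threshold 0.05). Each SE is |log2 fold change| divided by √F, and 95% intervals use the test's own degrees of freedom. DESeq2 1.42.0 (all genes above 0), limma-voom 3.58.1, other scalings and filters, a replicate block, each library left out and both number-2 libraries left out were the alternatives. The scripts were tested on simulated data. Exon lengths from GENCODE release 29 were found for 98.7% of tested genes.

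Libraries of the same number deviated together from their group means (correlations 0.14, 0.51 and 0.20 for numbers 1, 2 and 3, each over the limit of 0.1). Numbers were therefore treated as pairs in the block fits and in the ratios within numbers, but not in the main fit. The pairing rests on the labels' numbers and this check alone, and only number 2 correlated best with itself: shJUP 3 reached 0.39 with shNC 1, and shJUP 1 reached 0.15 with shNC 3.

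The factors and gene lists were chosen with earlier results of these data known. Named genes were JUP, the 10 factors, CDH1, EPCAM, CDH2, VIM, FN1, TCF3, TCF12, GRHL1, ESRP1, ESRP2 and PAX8, up to 4 genes with the smallest p-values per list, and the 2 most similar genes of each factor with a mean of at least 5 CPM. Other genes are named as examples chosen after their values were seen.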

Additional observations from a re-analysis of the deposited data

How the results depend on the processing

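The number of genes called was 0 in edgeR without a block and 0 to 0 with each library left out in turn. It was 5 without the filter, 179 in DESeq2 and 49 without both number-2 libraries. The replicate block gave 1 in edgeR and 696 in DESeq2. Of the factors, 0 were called with each library left out (range 0 to 0), and 1, ELF3, with the replicate block in DESeq2. The pairing of numbers changed no other call on a factor. Over the lists around the factors, 0 genes were called when any library was dropped (range 0 to 0), 1 when no filter was used, 6 in DESeq2, 6 without both number-2 libraries and 15 in DESeq2 under the replicate block. JUP was at -1.30 in DESeq2 with the replicate block, past the threshold, and between -1.80 and -0.75 with 1 library left out. The cause of these differences was not tested.

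Over 144 alternatives for the 9 tested factors, 129 kept direction and call, 14 changed direction and 1 gained a call. ZEB1 was at 0.01 with library totals alone and 0.09 without both number-2 libraries, where TCF4 was at 0.74, ID2 at 0.38, ID4 at 0.37, EPCAM at 0.05, FN1 at 0.88 and PAX8 at -0.11. With 1 library left out, the log2 fold change ran from -0.08 to 0.03 for ZEB1, -0.13 to 0.57 for SNAI2, -0.05 to 0.16 for TWIST1, -1.13 to 0.50 for TCF4, -0.43 to 0.21 for OVOL2 and -1.97 to 0.02 for ELF3. It ran from -0.68 to 0.56 for ID2, -0.53 to 0.49 for ID4, -0.73 to 0.71 for EPCAM, -1.01 to 0.84 for FN1, -0.24 to 0.51 for ESRP2 and -0.03 to 0.25 for PAX8. SNAI1 kept its direction between -1.07 and -0.54, PRRX1 between -1.96 and -0.99 and ZEB2 between 0.07 and 0.57. With 3 libraries a group, an exact permutation test of 1 gene could not give a p below 0.1. SNAI1, PRRX1 and OVOL2 rest on 20 to 149 counts a library, and GRHL2 on none.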
